A study of Mus musculus with 6 samples.

Results

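The genes described here are 10 genes of pigment cells, measured in whole cochleae of *Pou4f3(Δ/+)* mice and of their wildtype littermates. They were taken by symbol: *Dct*, *Tyr* and *Tyrp1*, which encode the melanin-making enzymes, *Pmel* and *Mlana*, which encode proteins of the melanosome, *Slc45a2*, which encodes a melanosome transporter, *Mitf*, which encodes the transcription factor of the lineage, and *Kit*, *Ednrb* and *Met*, which encode cell surface receptors. All 10 were found among the 51802 gene symbols listed, with 38 transcripts in all, and 9 of them were among the 17136 genes with enough counts to be tested. The rule that takes them uses no measured value, though earlier results of these data were known when they were chosen.

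Whole cochleae were taken at an age of 2 months and their RNA was sequenced in bulk, in 3 libraries per genotype. The *Pou4f3(Δ/+)* mice carry 1 wildtype allele and 1 knock-in allele of *Pou4f3*, a transcription factor gene of hair cells, with a small deletion that copies a mutation of the human deafness DFNA15. Both groups share the C57/BL6J background, a black-coated strain that is homozygous for the *Cdh23(ahl)* allele of age-related hearing loss, so the control animals carry that allele too. The knock-in allele is present in every cell of the mutant animals, not in hair cells alone, and the labels do not say how many cochleae or animals went into a library. The wildtype libraries are numbered 3, 4 and 5 and the *Pou4f3(Δ/+)* libraries 1, 2 and 3, and the p-values given here measure the spread between these libraries. Summed counts were 14295069 to 17696784 per library. *Pou4f3(Δ/+)* libraries 1 and 2 stood apart from the other 4 in B cell markers, and all 3 *Pou4f3(Δ/+)* libraries lay below the wildtype libraries in the sum of marginal cell markers (values are given with the marker lists).

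Melanocytes of the inner ear settle in the stria vascularis, the secretory epithelium of the lateral wall, where they are called intermediate cells. Through the potassium channel Kir4.1 (encoded by *Kcnj10*) they generate the endocochlear potential that drives sensory transduction, and loss of these cells through mutations in *Mitf*, *Kit* or *Ednrb* causes deafness together with white spotting. In melanocytes MITF binds a short element, the M-box, in the promoters of the melanin-making enzymes and switches these genes on. *Mitf* has several first exons, of which the most downstream one is that of the melanocyte form.

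The sequences below are shown so that the M-box core can be looked for in them, and because the files separate the *Mitf* and *Kit* transcripts that differ in them. Promoter windows from RefSeq (build GRCm38.p6, 250 bases before to 50 after a start site) were given for 7 of the 10 genes, in 10 windows. The core of the M-box, TCATGTG or its reverse complement CACATGA, was searched on both strands, and CATGTG, the E-box inside it, overlaps it. TCATGTG was found in 3 of the 10 windows, those of *Dct*, *Tyr* and *Tyrp1*, and in 3.77% of all 32851 windows. *Dct* held it 2 times, 232 and 151 bases before the start, and 0.134% of all windows held 2 or more copies. *Tyr* held 1 copy 22 bases before the start and *Tyrp1* 1 copy 47 bases before it. CATGTG was found in the same number of windows, 3 of 10, against 14.2% of all windows, and CACGTG in 1 of 10 windows, that of *Met*, against 7.15%. A match of letters is not a measured binding site. Each sequence reads 5′ to 3′ on the strand of its gene, with the motif in capitals. The *Dct*, *Tyr* and *Mitf* stretches are the 250 bases before the start, and the *Mitf* stretch, before its most downstream start, holds none of the 3 motifs. The *Tyrp1* stretch is the 30 bases around the motif, which lie before the listed start of its main transcript and inside the first exon of another, ENSMUST00000133655.
Dct, chr14:118052247-118052496, minus strand: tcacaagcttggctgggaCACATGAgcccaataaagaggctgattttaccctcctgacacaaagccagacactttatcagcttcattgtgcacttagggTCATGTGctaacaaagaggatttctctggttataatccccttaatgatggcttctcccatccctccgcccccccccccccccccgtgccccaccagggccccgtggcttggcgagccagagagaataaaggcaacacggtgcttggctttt
Tyr, chr7:87493513-87493762, minus strand: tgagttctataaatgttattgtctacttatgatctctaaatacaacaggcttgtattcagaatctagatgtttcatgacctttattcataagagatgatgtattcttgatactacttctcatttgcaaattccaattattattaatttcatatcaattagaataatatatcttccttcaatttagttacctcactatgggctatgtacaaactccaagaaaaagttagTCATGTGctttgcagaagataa
Tyrp1, chr4:80834155-80834184, plus strand: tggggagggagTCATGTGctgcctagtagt
Mitf, chr6:97991533-97991782, plus strand: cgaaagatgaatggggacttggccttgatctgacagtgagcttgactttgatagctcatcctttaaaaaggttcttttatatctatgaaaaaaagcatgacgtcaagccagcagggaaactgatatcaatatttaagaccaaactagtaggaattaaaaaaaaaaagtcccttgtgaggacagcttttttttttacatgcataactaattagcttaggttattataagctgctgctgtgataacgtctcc

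Levels are given in FPKM, which is scaled to transcript length and library size and was summed over the transcripts of a gene. *Dct* stood far above the other 9 genes, with a mean of 127 ± 9.53 FPKM (SD, n = 6), 9.35 times the next gene, and 97.4% of the tested genes had a lower mean. *Mitf*, *Kit*, *Met*, *Mlana*, *Ednrb* and *Slc45a2* followed in that order between 13.6 ± 1.83 and 9.57 ± 1.05 FPKM (SD, n = 6). Each of these 6 was above the next in only 4 of the 6 libraries, so their order lies within the spread between libraries, except that *Slc45a2* was above *Tyr* in 6 of 6. The deposited FPKM of *Mlana* lay up to 45.5% above that recomputed from its spliced length, and its place in this order depends on that. *Tyr* (5.54 ± 0.850 FPKM, SD, n = 6), *Pmel* (2.05 ± 0.837) and *Tyrp1* (0.172 ± 0.0637) came last, each above the next in 6 of 6 libraries. Only *Tyrp1* was too low to be tested.

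**Figure D1:**
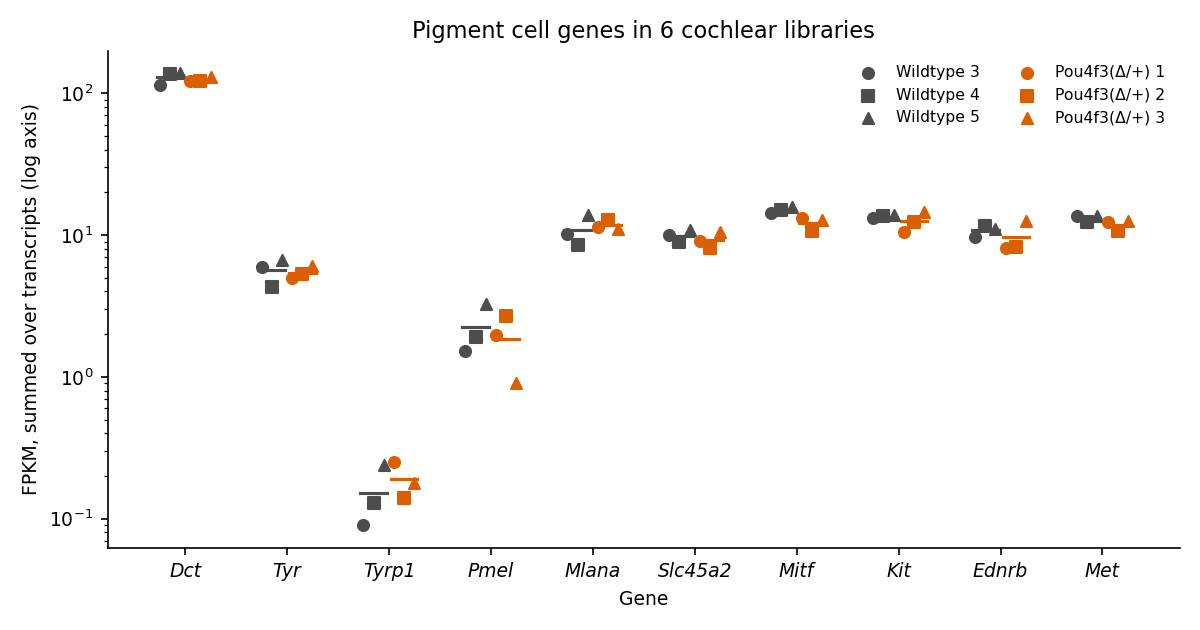
FPKM of the 10 pigment cell genes (log axis) in each of 3 wildtype libraries (grey) and 3 *Pou4f3(Δ/+)* libraries (orange), ordered by role, with a bar at the mean of each group. *Dct* lies between 114 and 138 and *Tyrp1* between 0.09 and 0.25, and the groups overlap for every gene but *Mitf*.

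None of the 9 tested genes passed the test between the genotypes. By edgeR's quasi-likelihood test 0 of 9 had an adjusted p under 0.05, where 0 of all 17136 tested genes (0%) did. DESeq2 on the same counts called 0 of the 9 and 0.373% of all tested genes. The log2 fold change, *Pou4f3(Δ/+)* over wildtype, was below 0 for 8 of the 9, against 50.6% of all tested genes, and its median was -0.15, against -0.003 over all tested genes. Without both *Pou4f3(Δ/+)* libraries 1 and 2 it was below 0 for 5 of the 9, with a median of -0.02. One gene, *Mitf*, had an unadjusted p under 0.05, against 7.64% of all tested genes. In library-scaled CPM (counts scaled to a common library size) the genotypes did not overlap for *Mitf* alone, with *Pou4f3(Δ/+)* lower, where 6.59% of all tested genes did so with *Pou4f3(Δ/+)* lower and 6.07% with it higher. In bulk tissue fewer pigment cells and less RNA per pigment cell cannot be told apart.

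**Figure D2:**
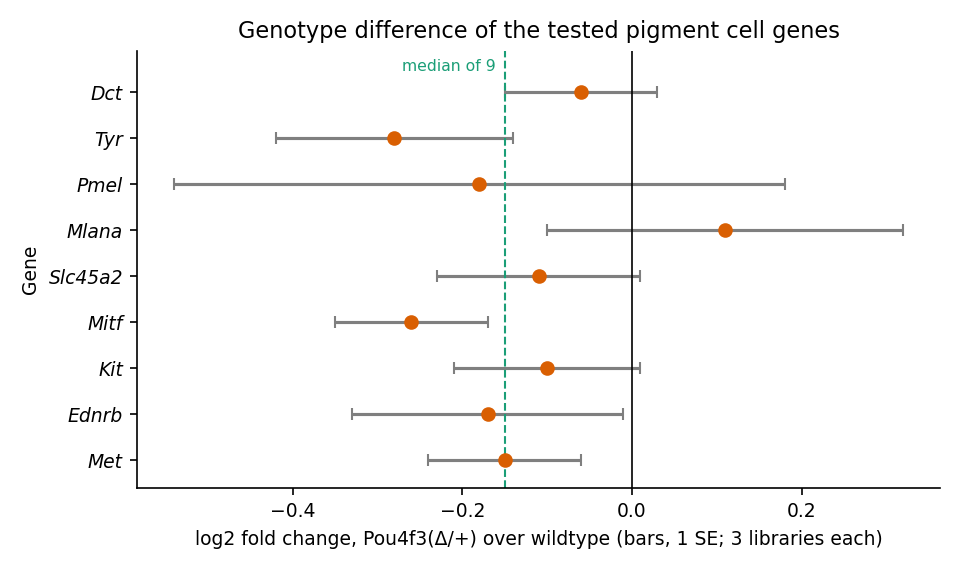
The log2 fold change of the 9 tested genes, *Pou4f3(Δ/+)* over wildtype, from edgeR (points) with 1 standard error (bars), 3 libraries per group; the dashed line is their median, -0.15. *Mitf* (-0.26) and *Tyr* (-0.28) lie lowest, and *Mlana* (0.11) alone lies above 0.

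Of the melanin-making enzymes, *Dct* (ENSMUSG00000022129, chromosome 14 from 118012790 to 118052244 in GRCm38) encodes dopachrome tautomerase, which acts on an intermediate of melanin synthesis and is an early marker of the lineage. Its FPKM was 114, 137 and 138 in wildtype libraries 3, 4 and 5 and 122, 121 and 130 in *Pou4f3(Δ/+)* libraries 1, 2 and 3, from 4241 to 5355 counts on its single listed transcript. The mutant values all fell inside the wildtype range. Its log2 fold change was -0.06 (SE 0.09, adjusted p = 0.875, edgeR).

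*Tyr* (ENSMUSG00000004651, chromosome 7 from 87424771 to 87493512) encodes tyrosinase, the rate-limiting enzyme of melanin synthesis. In library-scaled CPM it had 29.4, 25.4 and 36.6 in wildtype libraries 3, 4 and 5 and 22.7, 25.2 and 27.6 in *Pou4f3(Δ/+)* libraries 1, 2 and 3, from 366 to 625 counts. The highest library was wildtype and the lowest mutant, and the groups overlapped through wildtype 4. On counts the log2 fold change was -0.28 (SE 0.14, adjusted p = 0.660, edgeR), while the 2 genotypes averaged 5.64 ± 1.21 (wildtype) and 5.44 ± 0.570 FPKM (mutant; SD, n = 3 each), and limma on log2(FPKM + 0.5) gave -0.03. Without wildtype library 5 the value on counts was -0.12.

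The gap between the 2 scales goes with the transcripts behind the sum. The coding transcript ENSMUST00000004770 (6042 bases) had 4.14, 4.2 and 5.96 FPKM in wildtype libraries 3, 4 and 5 and 3.00, 3.52 and 4.06 in *Pou4f3(Δ/+)* libraries 1, 2 and 3. These groups did not overlap. Its log2 fold change was -0.44 (SE 0.20, adjusted p = 0.999, edgeR per transcript), and 0 of all 38347 tested transcripts (0%) were called by edgeR, against 0.339% by DESeq2, which called 0 of the 15 tested transcripts of these genes. The shorter noncoding transcript ENSMUST00000207164 (2333 bases) had 73.7, 3.31 and 0.329 estimated counts in the wildtype libraries and 80.9, 53.2 and 46.7 in the *Pou4f3(Δ/+)* libraries. It was high in 4 of the 6 libraries and close to 0 in wildtype 4 and 5, so wildtype 3 sided with the mutants (log2 fold change 1.30, SE 1.40, adjusted p = 0.999, edgeR). How counts were divided between these overlapping transcripts was estimated by the authors' program and was not tested.

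*Tyrp1* (ENSMUSG00000005994, chromosome 4 from 80834123 to 80851719) encodes the remaining enzyme of the family, whose promoter holds the M-box core as theirs do, yet it was close to absent. It had 4, 5 and 11 counts in wildtype libraries 3, 4 and 5 and 10, 3 and 4 in *Pou4f3(Δ/+)* libraries 1, 2 and 3, or 37 in all. Libraries of both genotypes reached 10 counts and both fell to 5 or less. On this scale 3 counts on its main transcript (2623 bases) are worth 0.0646 to 0.0800 FPKM. That transcript had 0.09, 0.13 and 0.24 FPKM in wildtype libraries 3, 4 and 5. In *Pou4f3(Δ/+)* libraries 1, 2 and 3 it had 0.19, 0.03 and 0.05 FPKM, the last 2 values on fewer than 3 counts. Summed over transcripts the levels were 0.09 to 0.25 FPKM, of which ENSMUST00000133655 held 0.06, 0.11 and 0.13 FPKM in the mutant libraries. The mean FPKM of *Dct* was 740 times that of *Tyrp1* summed over transcripts, with an exact Poisson 95% interval of 537 to 1051 that covers the counting error of *Tyrp1* only. A fit without the filter put its log2 fold change at -0.22 (SE 0.70, adjusted p = 0.951, edgeR), so the error spans differences in either direction.

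Of the genes for melanosome proteins, *Pmel* (ENSMUSG00000025359, chromosome 10 from 128704195 to 128720238) encodes the protein that forms the fibrils on which melanin is laid down. It had 1.53, 1.90 and 3.26 FPKM in wildtype libraries 3, 4 and 5 and 1.99, 2.70 and 0.90 in *Pou4f3(Δ/+)* libraries 1, 2 and 3, from 28 to 93 counts. The highest library was wildtype and the lowest mutant, while the other 2 wildtype libraries lay below the other 2 mutant libraries. edgeR gave a log2 fold change of -0.18 (SE 0.36, adjusted p = 0.915), which was 0.13 without wildtype library 5 and 0.125 without *Pou4f3(Δ/+)* library 3, so that 1 library of either genotype decided its direction. Without both *Pou4f3(Δ/+)* libraries 1 and 2 it was -1.07 (SE 0.46, adjusted p = 1.00, edgeR).

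*Mlana* (ENSMUSG00000024806, chromosome 19 from 29697824 to 29708634) encodes a small membrane protein of early melanosomes that acts in the maturation of PMEL. Its FPKM was 10.1, 8.53 and 13.8 in wildtype libraries 3, 4 and 5 and 11.4, 12.7 and 11.1 in *Pou4f3(Δ/+)* libraries 1, 2 and 3. All 3 mutant values lay between the wildtype extremes. At 0.11 (SE 0.21, adjusted p = 0.906, edgeR), its log2 fold change was the only one of the 9 above 0, and it was -0.03 without wildtype library 4.

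The transporter gene *Slc45a2* (ENSMUSG00000022243, chromosome 15 from 11000721 to 11029233) acts on the pH of the melanosome, on which tyrosinase activity depends. It was listed with 1 transcript, which had 9.98, 8.89 and 10.8 FPKM in wildtype libraries 3, 4 and 5 and 9.02, 8.16 and 10.5 in *Pou4f3(Δ/+)* libraries 1, 2 and 3. Both groups ran over nearly the same range. Its log2 fold change of -0.11 (SE 0.12, adjusted p = 0.824, edgeR) was smaller in size than its SE.

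*Mitf* (ENSMUSG00000035158, chromosome 6 from 97807052 to 98021349) showed the clearest separation of the 10 genes. It encodes the transcription factor on which survival and differentiation of melanocytes depend. Its FPKM was 14.4, 15 and 15.7 in wildtype libraries 3, 4 and 5 and 13.2, 10.6 and 12.8 in *Pou4f3(Δ/+)* libraries 1, 2 and 3. Every mutant library was below every wildtype library. The log2 fold change was -0.26 (SE 0.09), a level 0.833 times that of wildtype, with an unadjusted p of 0.0145 and an adjusted p of 0.643 in edgeR's quasi-likelihood test, so the difference did not pass the test over all genes. The value stayed between -0.30 and -0.19 with each library left out in turn.

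By start site, most of the *Mitf* FPKM was assigned to other transcripts than those of the melanocyte form. The 3 transcripts with the most upstream start, led by ENSMUST00000043637, held 76.5% to 87.1% of the FPKM of the gene. The 3 transcripts of the downstream start, 184740 bases further on, held 16.8%, 17.4% and 20.2% in wildtype libraries 3, 4 and 5 and 21.1%, 12.9% and 16.1% in *Pou4f3(Δ/+)* libraries 1, 2 and 3. Their summed level was 2.42, 2.61 and 3.17 FPKM in wildtype and 2.78, 1.36 and 2.06 FPKM in *Pou4f3(Δ/+)* libraries, which overlapped. Starts in between held 0% to 3.26%. ENSMUST00000043637 itself had 11.2, 11.9 and 12 FPKM in wildtype libraries 3, 4 and 5 and 10.2, 8.97 and 10.7 in *Pou4f3(Δ/+)* libraries 1, 2 and 3. All 3 mutant values were below all 3 wildtype values, with a log2 fold change of -0.24 (SE 0.09, adjusted p = 0.999, edgeR per transcript), the only one of the 15 tested transcripts of these genes with an unadjusted p under 0.05 (0.0297), against 4.14% of all tested transcripts. Of the 15, 3 did not overlap in FPKM with *Pou4f3(Δ/+)* lower, against 5.15% of all tested transcripts: ENSMUST00000043637, the coding *Tyr* transcript and ENSMUST00000203938 of the downstream *Mitf* start. The last had 1.49, 1.56 and 2.5 FPKM in wildtype and 1.43, 1.15 and 1.41 FPKM in *Pou4f3(Δ/+)* libraries, from 19.1 to 46.0 counts (log2 fold change -0.50, SE 0.36, adjusted p = 0.999, edgeR). ENSMUST00000043637 is annotated 2642 bases further at its 3′ end than any other listed *Mitf* transcript, so reads from the shared last exon and reads from the upstream start cannot be told apart in these values. Upstream forms are also made by other cells, among them osteoclasts, mast cells and retinal pigment cells.

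**Figure D3:**
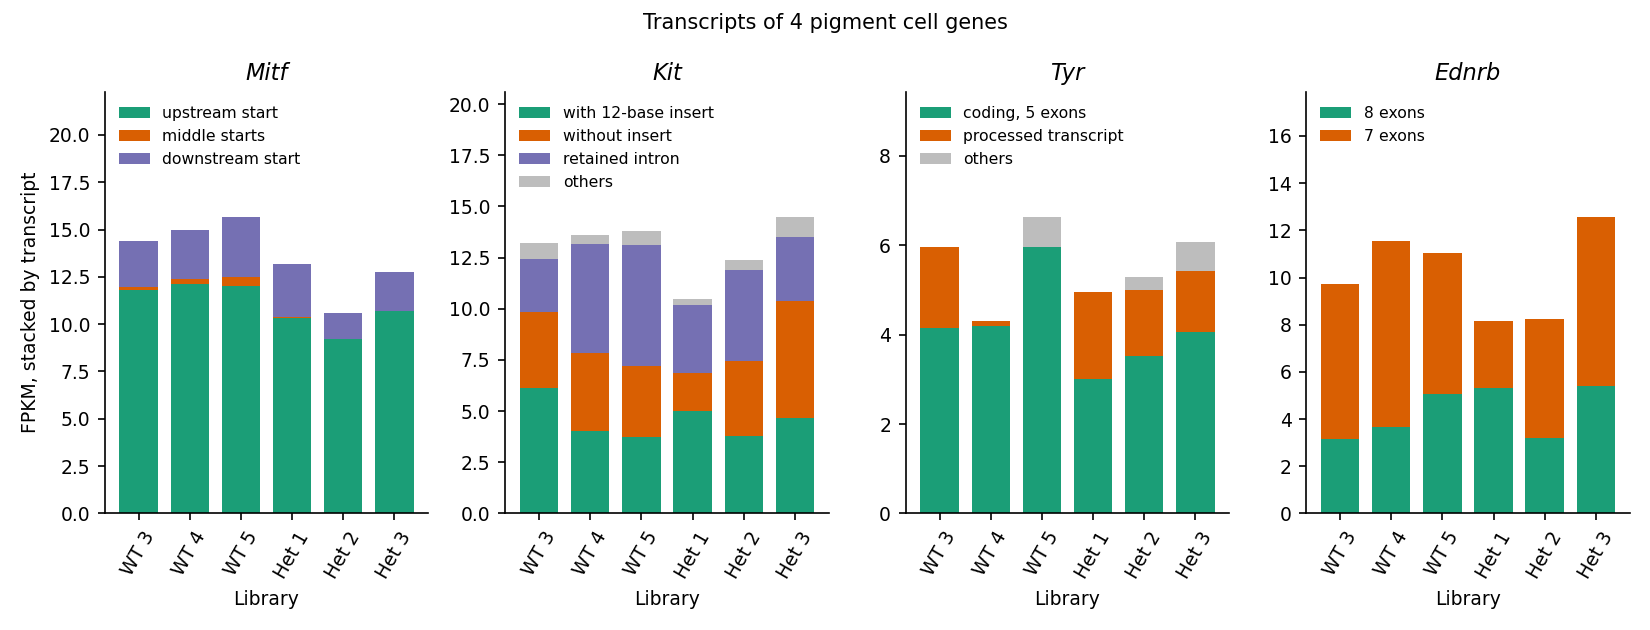
FPKM of *Mitf*, *Kit*, *Tyr* and *Ednrb* in each library (WT, wildtype; Het, *Pou4f3(Δ/+)*), stacked by transcript or, for *Mitf*, by start site; grey is all other listed transcripts. The upstream *Mitf* start holds 76.5% to 87.1% of each bar, and the *Tyr* processed transcript is close to 0 in WT 4 and WT 5.

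Among the receptors *Kit* (ENSMUSG00000005672, chromosome 5 from 75574916 to 75656722) encodes the receptor for stem cell factor, needed for migration and survival of melanoblasts. It had 13.2, 13.6 and 13.8 FPKM in wildtype libraries 3, 4 and 5 and 10.5, 12.4 and 14.5 in *Pou4f3(Δ/+)* libraries 1, 2 and 3. The wildtype values were close together, and the mutant values ran from below to above them. For the gene the log2 fold change was -0.10 (SE 0.11, adjusted p = 0.828, edgeR), and without *Pou4f3(Δ/+)* library 1 it was 0.01.

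The 2 full-length coding forms of *Kit* differ by 12 bases of coding sequence in exon 9 of the longer one (2937 against 2925 coding bases in GENCODE M21), which add 4 residues next to the membrane on the outer side of the receptor. The stretch is chr5:75639147-75639158 on the plus strand, shown here with 24 coding bases on either side and the extra bases in capitals.
Kit, form with the extra bases: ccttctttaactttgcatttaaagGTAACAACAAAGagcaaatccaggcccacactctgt
Kit, form without them: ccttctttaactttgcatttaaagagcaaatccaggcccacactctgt

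The form with the extra bases, ENSMUST00000005815, had 6.12, 4.03 and 3.75 FPKM in wildtype libraries 3, 4 and 5 and 5.0, 3.78 and 4.66 in *Pou4f3(Δ/+)* libraries 1, 2 and 3. The form without them, ENSMUST00000144270, had 3.73, 3.81 and 3.47 FPKM in wildtype and 1.88, 3.65 and 5.70 FPKM in *Pou4f3(Δ/+)* libraries. Neither form separated the genotypes, with log2 fold changes of -0.05 (SE 0.22) and 0.02 (SE 0.37; adjusted p = 0.999 for both, edgeR per transcript). A transcript with a retained intron, ENSMUST00000202167, held another 19.3% to 42.8% of the *Kit* FPKM.

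*Ednrb* (ENSMUSG00000022122, chromosome 14 from 103814625 to 103844402) encodes the receptor for endothelin 3, which expands the pool of melanoblasts. Its FPKM was 9.73, 11.6 and 11.1 in wildtype libraries 3, 4 and 5 and 8.15, 8.23 and 12.6 in *Pou4f3(Δ/+)* libraries 1, 2 and 3. Mutant libraries 1 and 2 were below all wildtype libraries and mutant library 3 was above them. Its log2 fold change was -0.17 (SE 0.16, adjusted p = 0.797, edgeR), and without *Pou4f3(Δ/+)* library 3 it was -0.39 (adjusted p = 0.117, edgeR), the lowest adjusted p that any alternative gave for any of the 9 genes. It was -0.06 without library 1, -0.08 without library 2 and 0.20 without both, so its direction rested on those 2 libraries. Of its 2 transcripts, which encode a protein of the same coding length (1326 bases), ENSMUST00000172237 had 6.59, 7.88 and 6.01 FPKM in wildtype libraries 3, 4 and 5 and 2.83, 5.04 and 7.18 in *Pou4f3(Δ/+)* libraries 1, 2 and 3 (log2 fold change -0.45, SE 0.32, adjusted p = 0.999, edgeR). The other, ENSMUST00000022718, had 3.95 ± 0.986 and 4.64 ± 1.25 FPKM (SD, n = 3 each).

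*Met* (ENSMUSG00000009376, chromosome 6 from 17463800 to 17573980) encodes the receptor for hepatocyte growth factor and is used as a marker of intermediate cells. It had 13.6, 12.4 and 13.6 FPKM in wildtype libraries 3, 4 and 5 and 12.3, 10.6 and 12.5 in *Pou4f3(Δ/+)* libraries 1, 2 and 3. The groups overlapped only through wildtype 4 and mutant 3. edgeR put the log2 fold change at -0.15 (SE 0.09, adjusted p = 0.679), and ENSMUST00000115443 held 88.8% to 97.4% of its FPKM.

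Replicate spread differed from gene to gene. The SD of log2 CPM within groups was set against the median of the 501 tested genes nearest in mean level. For *Ednrb* it was 0.256 against 0.123, for *Pmel* 0.562 against 0.306 and for *Tyr* 0.212 against 0.132, wider than for 92.6%, 91.6% and 87.0% of those genes. *Kit* (0.165 against 0.113) was wider than 79.2%. *Dct* (0.110 against 0.106), *Met* (0.107 against 0.107) and *Mitf* (0.095 against 0.113) varied as genes of their level did. The spread of *Ednrb* and *Kit* lay on the mutant side, with SDs of 0.341 and 0.228 in *Pou4f3(Δ/+)* against 0.120 and 0.048 in wildtype libraries, while that of *Tyr* was 0.141 against 0.265. These differences in spread were not tested.

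One wildtype library stood out. In library-scaled CPM wildtype 5 was the highest library for 8 of the 10 genes and for all 5 of *Dct*, *Tyr*, *Tyrp1*, *Pmel* and *Mlana*, where it was the highest for 19.8% of all tested genes. The mean log2 CPM of those 5 genes was 3.15, 3.23 and 3.75 in wildtype libraries 3, 4 and 5 and 3.42, 3.27 and 3.09 in *Pou4f3(Δ/+)* libraries 1, 2 and 3. The 3 wildtype libraries ranged over 0.60 and the 3 mutant libraries over 0.33. This mean weights the genes equally and followed the lowest ones most closely. Its Pearson's r was 0.83 with *Tyrp1* (37 counts in all) and with *Pmel*, against 0.64 with *Mlana*, 0.53 with *Dct* and 0.52 with *Tyr*. Wildtype 5 lay above the mean of the 6 libraries by 0.70 for *Tyrp1*, 0.60 for *Pmel*, 0.41 for *Tyr*, 0.31 for *Mlana* and 0.13 for *Dct*. *Pou4f3(Δ/+)* library 2 was the lowest for 4 genes and library 1 for 3, against 22.9% and 16.7% of all tested genes. *Kit* and *Ednrb*, the 2 genes not highest in wildtype 5, were highest in *Pou4f3(Δ/+)* library 3.

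**Figure D4:**
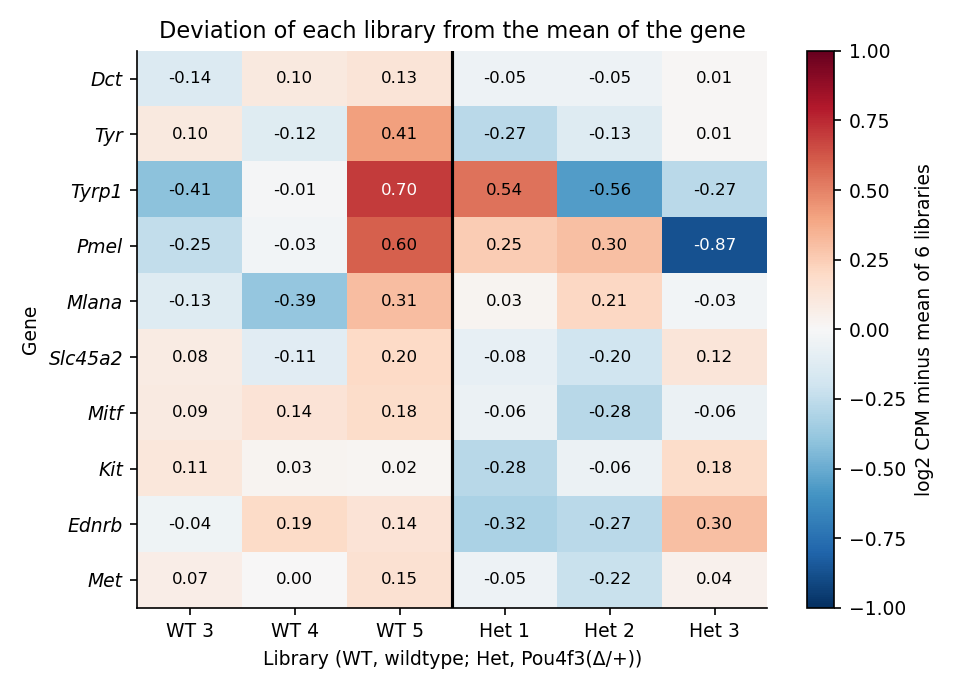
Log2 CPM of each library minus the mean of the 6 libraries for the same gene, for 10 genes (rows) and 6 libraries (columns; WT, wildtype; Het, *Pou4f3(Δ/+)*). Wildtype 5 is above the mean for all 10 genes, by 0.02 to 0.70, and *Pmel* in mutant library 3 is the lowest cell at -0.87.

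Over the 6 libraries, Pearson's r between the log2 CPM values of 2 of these genes was above 0 for 36 of the 45 pairs and below 0 for 9, with a median of 0.40. It was highest for *Slc45a2* and *Met* (0.90), *Mitf* and *Met* (0.89), *Kit* and *Ednrb* (0.81) and *Tyr* and *Slc45a2* (0.81), and lowest for *Pmel* and *Kit* (-0.62) and *Pmel* and *Ednrb* (-0.51). These are descriptions over 6 libraries, and the values of a library share its depth and tissue makeup. The 10 other genes most like the mean log2 CPM of the 5 melanosome genes were *Ifi203* (r = 0.983), *Dnm3os* (0.983), *Gipc2* (0.979), *Art3* (0.979), *Marco* (0.979), *Pawr* (0.977), *Parp3* (0.976), *Ctnna1* (0.976), *Klhdc1* (0.972) and *Jag1* (0.965). Of the 17127 genes compared, 105 (0.613%) had r above 0.9. How many unrelated genes would reach that r over 6 libraries was not tested, so these genes are not shown to vary with pigment cells. The mean they were compared with follows its low-count genes *Tyrp1* and *Pmel* most closely.

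Other genes of the pathway gave 0 calls as well. Of 27 further melanosome genes 25 were tested, 0 were called by edgeR or DESeq2, 14 lay above 0 and 11 below, and the median log2 fold change was 0.03. Groups did not overlap for 2 of them, both higher in *Pou4f3(Δ/+)* and named after their values were seen, *Mlph* (log2 fold change 0.43, SE 0.19) and *Bloc1s3* (0.26, SE 0.13; adjusted p = 0.643 and 0.653, edgeR), 2 of 25 against 6.07% of all tested genes. The 4 most abundant of them act in melanosome transport and sorting or in the melanosome itself. They were *Rab27a* (37.9 ± 3.03 and 39.6 ± 3.57 FPKM in wildtype and *Pou4f3(Δ/+)*, SD, n = 3 each), *Ap3d1* (38 ± 1.21 and 38.2 ± 2.84), *Myo5a* (37.4 ± 2.08 and 33.4 ± 4.69) and *Gpnmb* (36.6 ± 5.97 and 30.8 ± 3.36). These genes are also used by many other cells. *Oca2* and *Mc1r*, named after their values were seen, were below the filter at 0.0433 ± 0.0451 and 0.0233 ± 0.0252 FPKM in wildtype (SD, n = 3 each).

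Ligands of the 3 receptors were named for their role, after their values were seen. *Kitl*, the ligand of KIT, had 9.62, 11.6 and 9.16 FPKM in wildtype libraries 3, 4 and 5 and 10.6, 9.82 and 10.5 in *Pou4f3(Δ/+)* libraries 1, 2 and 3. *Hgf*, the ligand of MET, had 5.73 ± 0.210 and 5.73 ± 0.152 FPKM (SD, n = 3 each). Both overlapped between the genotypes. *Edn3*, the ligand of EDNRB, had 0.78, 0.59 and 0.58 FPKM in wildtype and 0.24, 0.25 and 0.37 FPKM in *Pou4f3(Δ/+)* libraries, from only 12 to 26 counts. Its groups did not overlap, with a log2 fold change of -0.68 (SE 0.34, adjusted p = 0.653, edgeR). It was the only one of the 10 ligand and receptor genes without overlap, near the 6.59% of all tested genes that did not overlap with *Pou4f3(Δ/+)* lower, and 0 of the 10 were called.

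Regulators and relatives of *Mitf* gave 0 calls among 9 tested of 11, with a median log2 fold change of -0.05. *Sox10*, which activates the *Mitf* melanocyte promoter and also marks Schwann cells, had 29.9, 31.7 and 33.6 FPKM in wildtype libraries 3, 4 and 5 and 29.6, 28.1 and 31.1 in *Pou4f3(Δ/+)* libraries 1, 2 and 3, with overlapping groups (log2 fold change -0.10, SE 0.08, adjusted p = 0.739, edgeR). *Zeb2* (40.7 ± 2.61 and 39.1 ± 3.38 FPKM) and *Tfe3* (19 ± 1.11 and 18.4 ± 1.25) differed by less than the SD of either group (SD, n = 3 each). *Sox9* (21.2 ± 3.79 and 23.3 ± 1.58 FPKM, SD, n = 3 each) differed by less than the wildtype SD but by more than the mutant SD.

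Markers of the intermediate cell were present in every library, though *Tyrp1* had only 3 to 11 counts. Of 10 such markers, 5 of them among the 10 genes above, 9 were tested, 0 were called and 8 had a log2 fold change below 0, with a median of -0.17. *Kcnj10* had 35.5, 37.3 and 41.5 FPKM in wildtype libraries 3, 4 and 5 and 31.2, 29.7 and 40.7 in *Pou4f3(Δ/+)* libraries 1, 2 and 3 (log2 fold change -0.17, SE 0.12, adjusted p = 0.721, edgeR). *Gsta4*, a glutathione transferase, had 114, 127 and 127 FPKM in wildtype and 89.0, 92.0 and 123 in *Pou4f3(Δ/+)* libraries. For both genes mutant libraries 1 and 2 were below all wildtype libraries and mutant library 3 was not, as for *Ednrb*. *Cd44*, a hyaluronan receptor, had 67.1, 68.8 and 71.4 FPKM in wildtype and 72.6, 73.1 and 63.1 in *Pou4f3(Δ/+)* libraries, and its log2 fold change was the only one above 0 (0.02, SE 0.10, adjusted p = 0.957, edgeR). *Nrp2*, named after its values were seen, was the only one of the 9 without overlap (log2 fold change -0.30, SE 0.12, adjusted p = 0.643, edgeR), which is also near that 6.59%.

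Markers of the marginal cells, which border the intermediate cells, had the lowest median of all lists. All 10 marginal cell markers had a log2 fold change below 0 (median -0.35). Their summed level was 443, 463 and 452 FPKM in wildtype libraries 3, 4 and 5 and 355, 298 and 412 FPKM in *Pou4f3(Δ/+)* libraries 1, 2 and 3. *Kcne1*, which encodes a subunit of the potassium channel of marginal cells, had 47.1, 47.7 and 49.3 FPKM in wildtype and 28.4, 15.9 and 34.7 FPKM in *Pou4f3(Δ/+)* libraries (log2 fold change -0.84, SE 0.24, adjusted p = 0.643, edgeR), and *Atp1b2*, a subunit of the sodium pump, gave -0.49 (SE 0.12, adjusted p = 0.643, edgeR). DESeq2 called these 2 markers (adjusted p = 0.0359 and 0.0168) and edgeR 0 of the 10. *Pou4f3(Δ/+)* library 2, the lowest in this sum, was also the lowest library for *Mitf*, *Slc45a2* and *Met*. Medians were -0.05 for 5 basal cell, -0.04 for 5 spindle and root cell, -0.23 for 8 fibrocyte, -0.14 for 8 Schwann cell and -0.05 for 6 endothelial markers, with 0 calls by either tool.

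Blood and bone cells can also contribute *Kit* and *Mitf*. Mast cell markers summed to 60.5, 53.4 and 54.9 FPKM in wildtype libraries 3, 4 and 5 and 60.7, 78.2 and 50.2 in *Pou4f3(Δ/+)* libraries 1, 2 and 3, most of it *Hdc*, which other cells share. The 4 of 9 that were tested all had a log2 fold change above 0 (median 0.47), with 0 called: 0.06 for *Hdc*, 0.50 for *Cpa3*, 0.44 for *Ms4a2*, whose groups did not overlap, and 1.43 for *Fcer1a*. Of the 5 below the filter, *Mcpt4* averaged 0.627 ± 0.136 FPKM in the wildtype libraries against 0.28 ± 0.121 FPKM in those of *Pou4f3(Δ/+)* cochleae, without overlap, and *Cma1* 0.433 ± 0.196 and 0.28 ± 0.229 FPKM, with overlap (SD, n = 3 each), on 2 to 12 counts per library. *Tpsb2* went the other way, at 0.15 ± 0.161 and 0.21 ± 0.07 FPKM, with overlap (SD, n = 3 each), on 0 to 6 counts per library. *Tpsab1* and *Mrgprb1* were under 3 counts in every library, and these 5 were named after their values were seen. Osteoclast markers summed to 1050, 785 and 958 FPKM in wildtype and 1073, 876 and 627 FPKM in *Pou4f3(Δ/+)* libraries, with a median log2 fold change of -0.17 over 8. Progenitor markers summed to 144, 139 and 197 FPKM in wildtype and 143, 181 and 150 FPKM in *Pou4f3(Δ/+)* libraries, with a median log2 fold change of 0.08 over 6 and 0 called. The high sum of wildtype 5 held 87.8 FPKM of *Ly6a*, which was at 25.9 and 23.6 FPKM in wildtype 3 and 4, and *Myb* alone of the 6 did not overlap (log2 fold change 0.23, SE 0.08, adjusted p = 0.643, edgeR). The part of these cells in the *Kit* and *Mitf* values was not tested.

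B cell markers were higher in *Pou4f3(Δ/+)* libraries 1 and 2, at 297 and 335 FPKM in sum, than in library 3 (164 FPKM) or the wildtype libraries (151, 159 and 130 FPKM), with a median log2 fold change of 0.88 and 0 of 9 called by edgeR (9 had an unadjusted p under 0.05) against 4 of 9 by DESeq2. The 8 erythroid markers had a median of 0.33 (1 called by DESeq2, *Hbb-bt*), and medians were 0.06 for 8 macrophage and 0.02 for 10 hair cell markers (0 called). The 2 mutant libraries rich in B cell markers were the 2 lowest for *Ednrb* and *Kit*. The part of tissue makeup in the values of the pigment cell genes was not tested.

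**Figure D5:**
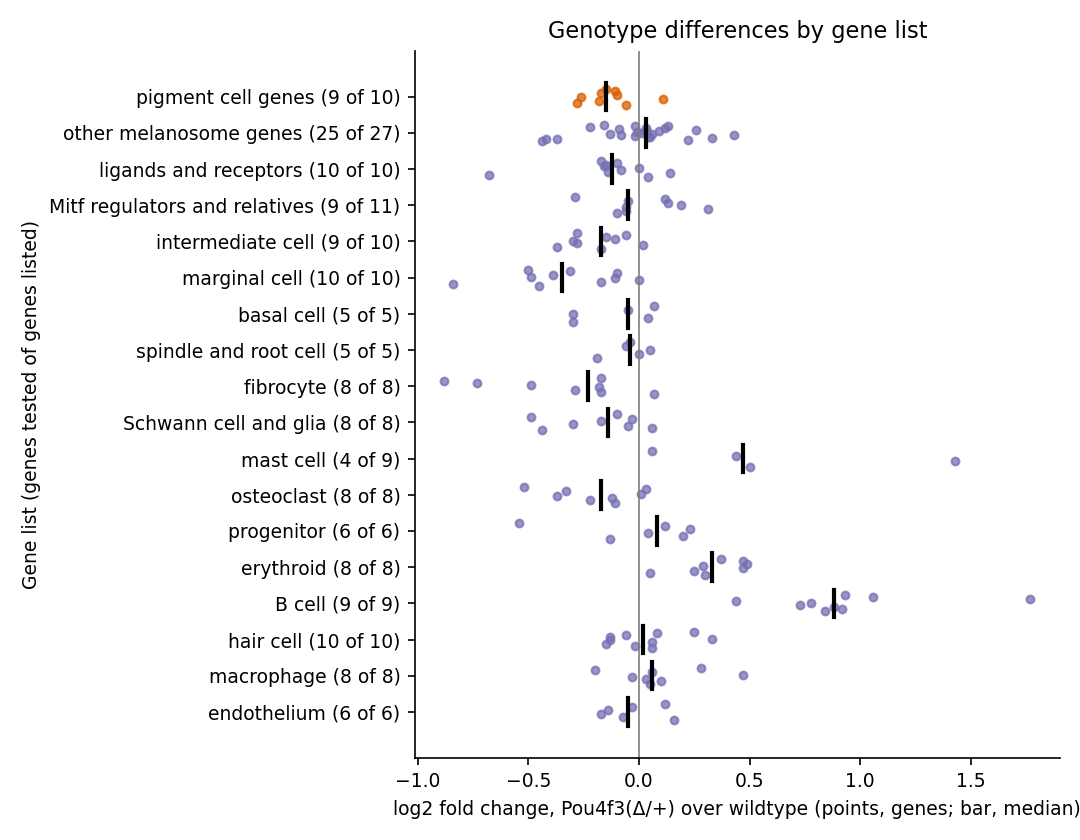
The log2 fold change of each tested gene, *Pou4f3(Δ/+)* over wildtype, by gene list (points), with the median of each list (black bar); counts beside each name are genes tested of genes listed. The pigment cell genes (orange) have a median of -0.15, marginal cell markers -0.35 and B cell markers 0.88.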

How the data were processed

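RNA of whole cochleae was sequenced in 6 libraries. For each of 128603 transcripts the authors deposited an expected count, an estimate that they did not normalize (77.8% of those above 0 were not whole). The authors also deposited FPKM values, scaled to transcript length and library size, and a listed length. The submitters' processing notes name DESeq2 and mm8; aligner and counting program are not given in the sources used here. Transcripts were looked up in GENCODE M21 (GRCm38), where the listed length equals the genomic span for 92.1% of the 38 transcripts described. For 91.7% of 72 values over 50 counts the FPKM lay within 10% of that recomputed from the spliced length. The values outside were those of *Mlana*, whose deposited FPKM lay above the recomputed one, by up to 45.5%. The listed symbols include 24 that read as dates; none is named.

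Values were summed per symbol. After rounding, the sums entered edgeR 4.0.16 in R 4.3.3 (filterByExpr, minimum count 10 and total 15; TMM; quasi-likelihood test of genotype; Benjamini-Hochberg over all features, threshold 0.05), per gene and per transcript. SEs were derived from the fold change and its F statistic. Log2 CPM used a prior count of 2. Alternatives were DESeq2 1.42.0, its size factors, no filter, limma 3.58.1 on log2(FPKM + 0.5) or (FPKM + 0.1) for genes with a mean FPKM of at least 0.5, and libraries left out. The fits were tested on simulated data. Levels, transcripts and motifs were handled in Python 3.11.15 with pandas 2.3.3 and SciPy 1.17.1. Summed counts set the precision (14295069 to 17696784), and the 3-count floor and the Poisson interval cover counting error only.

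The genes, the lists and the alternatives were chosen with earlier results of these data known. Named were the 10 genes, their transcripts with a mean of at least 1 FPKM in a group (0.1 for Mitf), up to 4 most abundant genes of a list and any that passed, and the 10 genes most like the mean of 5 melanosome genes; others are marked as named after their values were seen. Results for some listed marker genes are not reported here.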

Additional observations from a re-analysis of the deposited data

How the results depend on the processing

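No gene of the 9 tested passed an adjusted p of 0.05 under any alternative, and the lowest was 0.117. Of 109 alternative values of log2 fold changes, 12 for each of the 9 and 1 for Tyrp1, 102 kept their direction and 7 changed sign. Leaving out each library in turn gave -0.36 to 0.13 for Pmel, -0.032 to 0.33 for Mlana and -0.22 to 0.0068 for Kit, and 1 sign for the rest: -0.14 to -0.01 for Dct, -0.39 to -0.12 for Tyr, -0.30 to -0.19 for Mitf, -0.39 to -0.06 for Ednrb, -0.19 to -0.03 for Slc45a2 and -0.20 to -0.08 for Met. Without both Pou4f3(Δ/+) libraries 1 and 2, where the lone mutant library is assumed to vary like the wildtype ones, Kit gave 0.12, Ednrb 0.20 and Slc45a2 0.063, and Pmel moved from -0.18 to -1.07; the cause was not tested. Tyr moved from -0.28 on counts to -0.03 in limma on log2(FPKM + 0.5). Over all genes, edgeR called 0 (1309 at an unadjusted p under 0.05), DESeq2 64, edgeR without a filter 9 and without both Pou4f3(Δ/+) libraries 1 and 2 it called 6. Leaving out each library gave 0 to 193 genes, with 193 without Pou4f3(Δ/+) library 3 and 3 without wildtype library 4. Over transcripts edgeR called 0, DESeq2 130, and leaving out each library gave 0 to 3, with 3 without wildtype library 3. No paired analysis was possible because the genotypes share only replicate number 3. Tyrp1, with 37 counts in all, was below the filter; without a filter its log2 fold change was -0.22 (SE 0.70, adjusted p = 0.951, edgeR).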
